A study of Mus musculus with 2 samples.

Results

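The genes described are 10 immediate early genes in spinal microglia, Fos, Fosb, Jun, Junb, Jund, Egr1, Ier2, Ier5, Atf3 and Dusp1, out of the 32285 genes counted. They were chosen by name, and all 10 were found in the count tables of both libraries and held at least 100 UMIs (unique molecular identifiers, 1 for each captured RNA molecule). scRNA-Seq was available for 1 library of control mice (Eif4ebp1 fl/fl, called WT in the labels) and 1 library of 4E-BP1–cKO mice (Eif4ebp1 fl/fl:TMEM119 CreERT2, cKO below). The floxed allele was shared by both groups, and the Cre recombinase of the cKO was driven by the promoter of Tmem119, a gene of microglia. The mice were males aged 8 to 10 weeks that had been given 4-OHT, the drug that activates CreERT2, from postnatal day 4 to 9. How many mice were pooled in each library was not named in the sources read. Lumbar spinal cord was digested with collagenase for 45 minutes at 37 °C, and cells of the gate CD45lo CD11b hi CX3CR1 hi were sorted. The methods read here name no inhibitor of transcription during this step, so levels at dissection and levels gained during the preparation of the cells cannot be told apart.

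Immediate early genes are transcribed within minutes of a stimulus, from factors already present in the cell, and most of their transcripts are short-lived. Proteins of the FOS and JUN families pair through leucine zippers to form AP-1, a transcription factor that binds DNA, and ATF3 belongs to the same bZIP class. In microglia, as in other cells, these genes are known to respond both to signals through MAPK pathways and to the isolation of cells from tissue. 4E-BP1 binds the cap-binding protein eIF4E and limits the start of translation, so its loss is known to act on protein synthesis, which RNA counts do not measure.

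The stretch before the transcription start is shown for 3 of the genes, 1 each of the FOS family, the JUN family and the phosphatases, as examples of promoters that carry the letters described here. Promoter sequences of RefSeq (GRCm38.p6, the build mm10 of the count tables) were at hand for 8 of the 10 genes, all but Egr1 and Ier2. The 200 bases before the start are chr12:85473690-85473889 (plus strand) for Fos, chr8:84978749-84978948 (minus strand) for Junb and chr17:26508473-26508672 (minus strand) for Dusp1. They are given 5′ to 3′ on the strand of the gene, and capitals mark the letters TGACG, on either strand, the core of the cAMP response element (CRE), or the full palindromic element TGACGTCA.
Fos: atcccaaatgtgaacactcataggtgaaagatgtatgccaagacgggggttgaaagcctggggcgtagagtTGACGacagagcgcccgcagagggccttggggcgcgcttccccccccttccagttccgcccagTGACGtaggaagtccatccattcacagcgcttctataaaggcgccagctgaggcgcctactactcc
Junb: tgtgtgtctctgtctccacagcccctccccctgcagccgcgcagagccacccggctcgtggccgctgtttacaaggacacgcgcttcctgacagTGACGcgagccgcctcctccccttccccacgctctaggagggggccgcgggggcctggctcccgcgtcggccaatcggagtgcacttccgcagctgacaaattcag
Dusp1: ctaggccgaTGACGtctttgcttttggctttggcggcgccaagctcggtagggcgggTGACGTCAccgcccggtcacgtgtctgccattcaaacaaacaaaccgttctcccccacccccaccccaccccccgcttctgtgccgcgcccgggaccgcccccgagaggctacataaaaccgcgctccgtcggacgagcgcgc
In the 250 bases before the start, TGACG was present on at least 1 strand in 5 of the 8 genes searched (Fos, Fosb, Junb, Atf3 and Dusp1), compared with 17.9% of all 27025 promoters in the table and 26.3% of the 10995 with at least 55% G and C. The genes shown were picked from these 5. The letters began 129 and 66 bases before the start in Fos and 106 bases before it in Junb. The full TGACGTCA was found in 1 of the 8 genes, Dusp1, 143 bases before the start, and in 1.62% of all promoters. This element contains TGACG on both strands, so the counts overlap. The CArG box, which binds serum response factor, was found in 0 of the 8 windows and in 1.40% of all, and the AP-1 letters (TGACTCA or TGAGTCA) were found in 0 and in 4.43%. Letter matches describe a sequence and not the binding of a factor, and an element farther upstream would not be seen.

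The control library held 1216 barcodes and 4914298 UMIs, and the cKO library 474 and 1769927, with 0 barcodes in common. The kept cells, those with over 300 genes detected and with less than 5% of their UMIs from mitochondrial genes, were 1147 control cells (median of 3053 UMIs) and 445 cKO cells (median of 2776 UMIs). At least 3 of 10 markers of microglia were detected in 1097 control and 412 cKO cells. P2ry12 was found in 76.8 and 72.4% of the cells, whereas Tmem119 was found in 59.4 and 33.9%. Sall1 was found in 38.4 and 38.7%, and Selplg in 70.0 and 70.6%. The rest of the 10 markers were found in smaller shares of cKO than of control cells, with Tmem119 the farthest apart. At least 3 markers of another cell type were carried by 19 control and 3 cKO cells, with border-associated macrophages and proliferation not counted here. At least 3 markers of border-associated macrophages were carried by 2 control and 1 cKO cells, and of proliferation by 2 and 0. Eif4ebp1 had 95 and 51 UMIs, or 19.8 and 29.4 CPM (UMIs per 1000000 UMIs of the kept cells). The methods genotype the floxed allele at exon 2 by PCR of ear samples, which does not show the deletion in microglia. By immunostaining, the paper reports less of the encoded protein in spinal microglia of cKO mice. These libraries read 3′ ends, so the deletion is unchecked by the count of Eif4ebp1. With 1 library per genotype there is no replicate and no test between genotypes. The 95% intervals below cover counting error only, and a difference between the libraries cannot be told apart from one between mice, sorts or captures. By genotype, only the cKO mice carried the Cre recombinase. An effect of Cre itself therefore cannot be told apart from one of the loss of Eif4ebp1.

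All 10 genes were abundant in both libraries. Together they took 1.61% of the UMIs of control cells (77144 UMIs) and 2.10% of those of cKO cells (36342 UMIs). CPM of 3′ tags does not grow with transcript length, so levels of different genes can be set side by side, apart from differences in how well each 3′ end is captured.

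Among the JUN family, Jun was the most abundant gene of the set, with 3961 CPM (3905 to 4017) in the control library and 4467 CPM (4369 to 4568) in the cKO library. Junb followed with 2701 CPM (2655 to 2748) and 3692 CPM (3603 to 3784). Jund, which many cells express without a stimulus, had 1393 CPM (1359 to 1426) and 1762 CPM (1700 to 1826). All 3 lay higher in the cKO library. Among the 7184 genes with at least 100 UMIs, the log2 ratio of cKO over control was higher than that of Jun in 23.2%. It was higher than that of Junb in 4.65% and than that of Jund in 9.16%.

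In the FOS family, Fos had 2186 CPM (2144 to 2228) in the control library and 2671 CPM (2595 to 2749) in the cKO library. Fosb, its paralog, had 616 CPM (594 to 639) and 679 CPM (640 to 719). The FOS proteins cannot pair with one another and need a JUN partner. The intervals of Fosb lay close to each other, and 27.2% of the 7184 genes had a higher log2 ratio of cKO over control.

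Among the factors outside the FOS and JUN families, Egr1, a zinc finger factor, had 1945 CPM (1906 to 1985) and 3011 CPM (2930 to 3094). It stood below Fos in the control library and above it in the cKO library. Atf3, a bZIP factor induced by many forms of stress, had 1520 CPM (1485 to 1555) and 2207 CPM (2137 to 2278). Ier5 encodes a nuclear protein of the same family as that of Ier2. It had 810 CPM (785 to 836) in the control library and 1214 CPM (1162 to 1267) in the cKO library. Ier2 was the least abundant gene of the set in the control library, with 328 CPM (312 to 345), but had 680 CPM (642 to 720) in the cKO library, where it lay beside Fosb.

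Dusp1 encodes a phosphatase that inactivates MAPKs and is itself induced with the other genes. It had 599 CPM (577 to 621) in the control library and 571 CPM (536 to 608) in the cKO library. It was the only member with a lower value in the cKO library, and its intervals overlapped. In the order of levels within the control library, Fosb and Dusp1 were the neighbors whose intervals overlapped. In the cKO library, those of Fos and Egr1 did not overlap, whereas those of Fosb and Ier2 did.

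**Figure D1:**
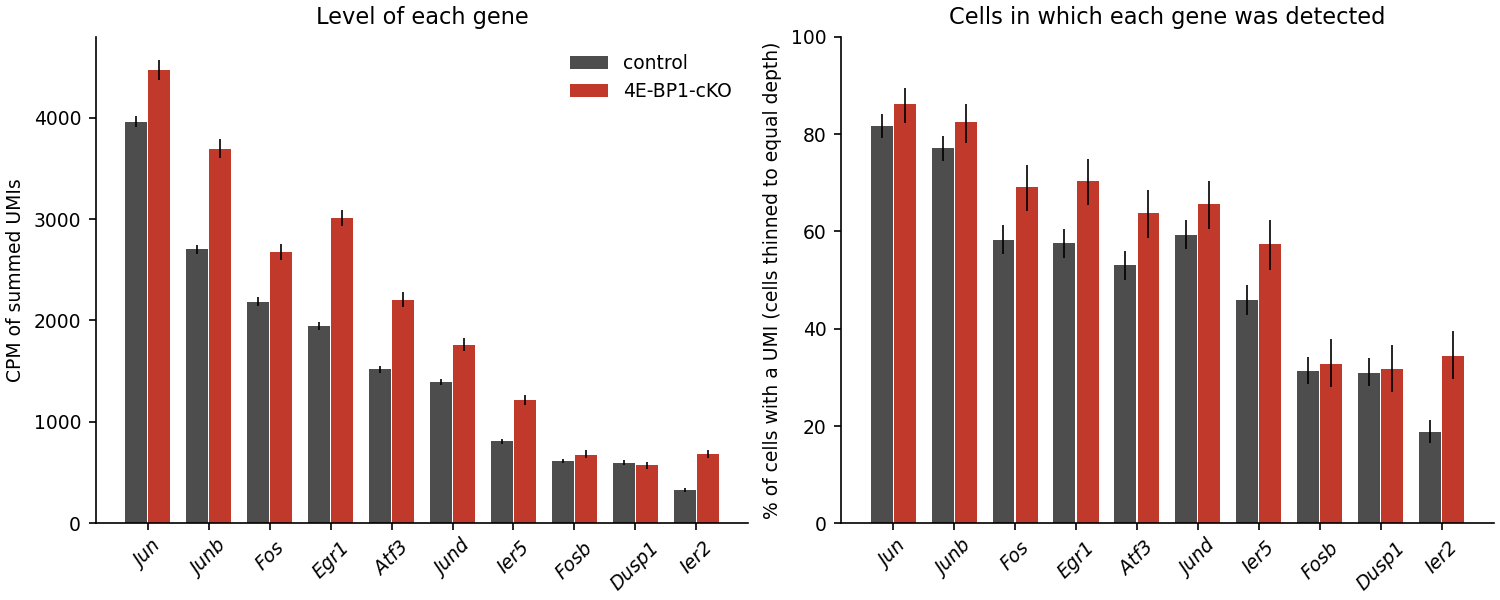
The left panel plots CPM of each gene, and the right panel plots the percentage of cells with at least 1 UMI of it after every cell was thinned to 872 UMIs. Gray bars are the control library, red bars the cKO library, and error bars are 95% counting intervals. Jun is highest in both panels, and Ier2 goes from 328 to 680 CPM.

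Detection was wide across cells. Jun was detected in 92.9% of control cells (91.2 to 94.3%) and 91.2% of cKO cells (88.2 to 93.7%), and Fos in 81.2% (78.8 to 83.4%) and 79.8% (75.7 to 83.4%). Ier2 was detected in 47.8% (44.9 to 50.7%) and 59.6% (54.8 to 64.1%). Genes that microglia should lack, taken as the background of detection, gave far smaller shares. Aqp4 of astrocytes was detected in 1.83 and 1.57% of the cells, Mobp of oligodendrocytes in 0.523 and 0.674% and Snap25 of neurons in 0.349 and 0.225%. Cldn5 of endothelial cells was detected in 0.436% of control cells and in 0 of 445 cKO cells, which allows a share of cells with a UMI of up to 0.674% when 3 cells are taken as the limit (the exact interval ends at 0.826%).

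Because depth differed between cells, each cell was also thinned at random to 872 UMIs, which is the 10th percentile of all kept cells. Deep enough were 1058 control and 375 cKO cells. At this equal depth Jun was detected in 81.8% (79.3 to 84.0%) and 86.1% (82.2 to 89.5%) of the cells. Fos was detected in 58.3% (55.3 to 61.3%) and 69.1% (64.1 to 73.7%), and Egr1 in 57.6% (54.5 to 60.6%) and 70.4% (65.5 to 75.0%). The share for Ier2 was 18.8% (16.5 to 21.3%) in the control library and 34.4% (29.6 to 39.5%) in the cKO library. Fosb (31.4 and 32.8%) and Dusp1 (31.0 and 31.7%) were detected in shares whose intervals overlapped. Thus Fos, Egr1 and Ier2 were found in more of cKO cells at matched depth, while at full depth the share for Fos was no higher there.

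Within 1 library, single cells differed widely in these transcripts. The summed share of the 10 genes per cell had a median of 1.26% in the control library, with a 10th percentile of 0.487%, a 90th percentile of 2.81% and a maximum of 7.38%. In the cKO library the median was 1.69%, these percentiles were 0.561 and 3.41% and the maximum was 7.10%. The tenth of the cells with the most member UMIs held 39.6 and 35.4% of them. This ranking was by UMIs and not by share, so depth enters it, and its part was not tested. Cells with 5000 UMIs or more were 28.4% of control and 28.3% of cKO cells. They held 2833290 of 4803562 UMIs of all genes in the control and 1056280 of 1734332 in the cKO library. At least 1 member UMI was present in every control cell and in all but 1 of cKO cells. All 10 genes were detected together in 252 control cells (22.0%) and 132 cKO cells (29.7%). At equal depth, 8 or more of the genes were detected in 13.5% of control cells (11.5 to 15.7%) and 26.4% of cKO cells (22.0 to 31.2%), and 3 or fewer in 20.9% (18.5 to 23.5%) and 15.2% (11.7 to 19.2%).

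**Figure D2:**
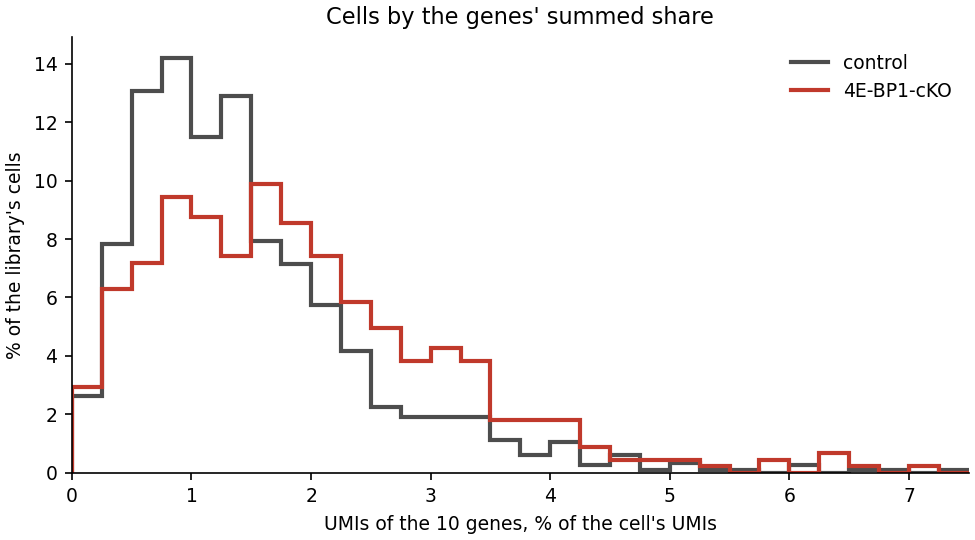
The plot gives the percentage of the cells of each library (y axis) by the share of a cell's UMIs that fell on the 10 genes (x axis, steps of 0.25 percentage points). Gray is the control library with a median of 1.26%, and red the cKO library with a median of 1.69%. Both are broad with a single long tail to the right and overlap over their whole range.

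The spread between cells was above that of counting. In thinned cells, the variance of the UMI count over its mean, which is near 1 for counting error alone, was 3.07 for both Fos and Jun in the control library and 1.32 for Ier5, the lowest value there. The median over the 10 genes was 2.04 in the control library and 2.11 in the cKO library. The 695 and 309 other genes whose means lay anywhere in the range of the members had medians of 1.38 and 1.61. That range was 0.242 to 3.17 UMIs per cell in the control and 0.448 to 3.71 in the cKO library. The 90th percentile of these genes was 1.95 in the control library and 2.28 in the cKO library, where it lay above the median of the members. These genes were not matched to the mean of each member. Ier5 and Ier2 (1.35) in the control library, and Ier5 (1.53) and Dusp1 (1.33) in the cKO library, lay below the median of these genes. The other members lay above it.

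The ratio between the libraries was then taken gene by gene. Ier2 had the largest, 2.07-fold (1.92 to 2.23) higher in the cKO library, from 1577 UMIs in the control and 1179 UMIs in the cKO cells. Among the 7184 genes with at least 100 UMIs, 0.125% had a higher log2 ratio than Ier2. Egr1 was 1.55-fold (1.496 to 1.601) higher. Ier2 and Egr1 were the 2 of the 10 members past 1.5-fold, compared with 1.87% of all genes. No member was lower by as much, compared with 5.01% of all genes. Just under this limit lay Ier5 at 1.498-fold (1.42 to 1.58), whose interval held the limit, and Atf3 at 1.45-fold. The other members were 1.37-fold (Junb), 1.27-fold (Jund), 1.22-fold (Fos, 1.18 to 1.27), 1.13-fold (Jun) and 1.10-fold (Fosb) higher in the cKO library. For Dusp1 the ratio was 0.954 (0.887 to 1.03), and its interval held 1. The log2 ratio was above 0 for 9 of the 10 members and for 45.2% of all genes, with a median of 0.40 over the members and -0.03 over all genes.

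At equal depth the ratios of Ier2 (2.31-fold, 1.92 to 2.79) and Egr1 (1.52-fold, 1.39 to 1.66) remained past 1.5-fold, and Atf3 joined them at 1.603-fold (1.46 to 1.76). These 3 of 10 members compare with 3.63% of the 2426 genes that kept at least 100 UMIs after thinning, and 0 members lay below the limit on the other side, where 7.34% of those genes did. Fos gave 1.43-fold (1.31 to 1.56) at equal depth against 1.22-fold with all UMIs. Dusp1 gave 0.965 (0.805 to 1.15). Thinning counts each cell equally, whereas the sum of all UMIs is weighted towards the cells with many UMIs. It also left out the shallowest cells, 89 of 1147 in the control and 70 of 445 in the cKO library.

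**Figure D3:**
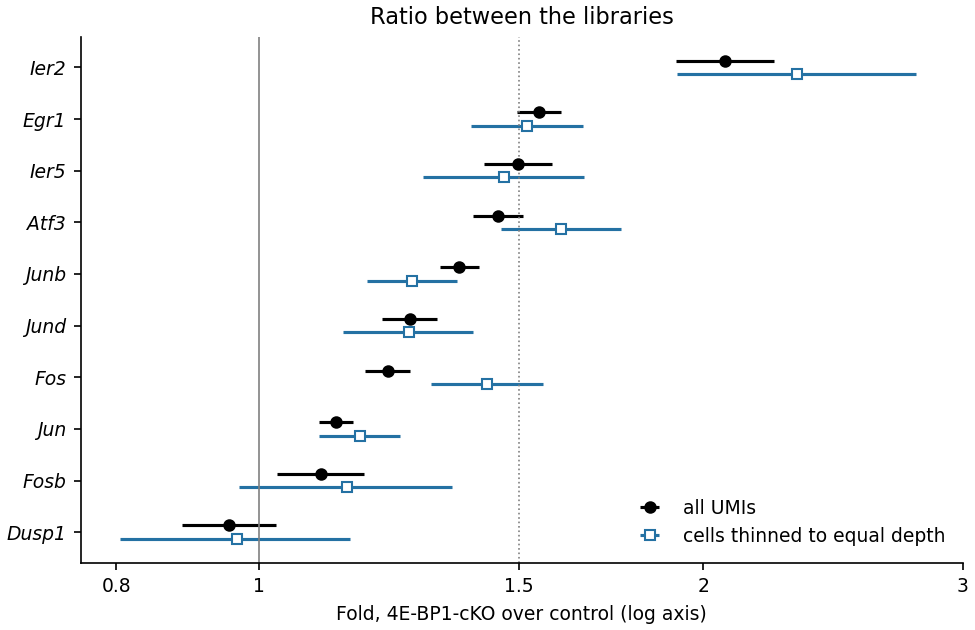
Points give the fold of each gene in the cKO library over the control library on a log axis, with 95% counting intervals. Black circles use all UMIs and open blue squares use cells thinned to 872 UMIs. The solid line marks equal levels and the dotted line 1.5-fold. Dusp1 is the one gene left of equality, at 0.954, and Ier2 lies farthest to the right, at 2.07 and 2.31.

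The ratio of some genes differed between bins of depth. For Fos, the ratio was 0.925 (0.748 to 1.14) in cells with under 1500 UMIs, 1.68 (1.57 to 1.80) in cells with 1500 to 5000 UMIs and 1.09 (1.05 to 1.14) in cells with 5000 UMIs or more. These bins held 221, 600 and 326 control cells and 126, 193 and 126 cKO cells. In the middle bin, at least 2.5% of UMIs came from ribosomal protein genes in 138 control and 82 cKO cells. Below this share Fos there had 868 CPM in control and 1119 CPM in cKO cells, and at or above it 2844 and 3633 CPM. The part of this share in the ratios by depth was not tested. Junb was level between the libraries in the shallowest cells (0.998, 0.875 to 1.14) and 1.38-fold (1.32 to 1.43) higher in the deepest. For Ier2 the ratio was 1.41 (0.994 to 1.996), 2.25 (1.97 to 2.57) and 2.04 (1.85 to 2.25) in this order, above 1 in each bin but with an interval that held 1 in the shallowest. That of Egr1 was 1.11 (0.931 to 1.33), 1.64 (1.53 to 1.75) and 1.53 (1.47 to 1.59), also with an interval that held 1 in the shallowest cells. Dusp1 had a ratio of 1.35 (0.962 to 1.87) in the shallowest cells and 0.906 (0.827 to 0.991) in the deepest, where its interval lay below 1.

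Cells also differed in how much of their UMIs came from ribosomal protein genes. The median of this share per cell was 2.22% in the control library and 3.53% in the cKO library, and at least 2.5% was reached by 530 control cells (46.2%, 43.3 to 49.1%) and 251 cKO cells (56.4%, 51.7 to 61.1%). The 84 ribosomal protein genes are not members, so this split does not use the members.

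Fos depended on this share the most when cells were split at 2.5%. In the control library it had 930 CPM in cells below 2.5% and 2843 CPM in cells at or above it, a ratio of 3.06 (2.90 to 3.23), and in the cKO library it had 1035 and 3250 CPM, a ratio of 3.14 (2.85 to 3.46). Egr1 followed with ratios of 1.956 (1.86 to 2.06) in the control library and 2.17 (2.003 to 2.35) in the cKO library. The ratio of Dusp1 was 1.72 and 1.52, that of Ier2 was 1.59 and 1.64, that of Atf3 was 1.51 and 1.54, and that of Jund was 1.55 and 1.497. Jun (1.44 and 1.39) and Junb (1.25 and 1.40) differed less. Ier5 gave 1.09 and 1.16, and Fosb gave 1.16 and 1.08, where the interval in the cKO library (0.946 to 1.24) held 1. Of the paralogs, Fos thus had the highest ratio of the set in both libraries at this cut. Fosb had the lowest in the cKO library and the next to lowest in the control library. The rank of Fos depended on the cut. At a cut of 4%, its log2 ratio in the control library was 0.82, below Egr1 (0.95) and Ier2 (0.89), and that of Fosb was -0.06. In the cKO library Fos stayed highest at that cut, with 1.05.

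Past 1.5-fold higher in cells with the larger share were 6 members in the control library, compared with 20.1% of 6169 genes, and 5 members in the cKO library, compared with 20.7% of 3079 genes. On the lower side there were 0 members, compared with 17.4 and 27.7% of the genes. The median log2 ratio over the members was 0.62 and 0.59, and over all genes it was -0.15 and -0.24. Depth moved with the ribosomal share. In the control library the median was 2358 UMIs in cells under 2.5%, 5297 in cells at 2.5 to 5%, 5284.5 in cells at 5 to 10% and 7051 in cells at 10% or more. The share of UMIs on Malat1, a nuclear RNA, was 4.88, 3.24, 2.75 and 2.002% in these bins. The part of depth and of nuclear RNA in the split was not tested. Below and at or above 2.5%, Fos had 965 CPM (811 to 1141) and 1902 CPM (1612 to 2228) in control cells with under 1500 UMIs, 868 CPM (818 to 921) and 2844 CPM (2695 to 2999) in those with 1500 to 5000, and 1236 CPM (1098 to 1386) and 2872 CPM (2807 to 2938) in those with 5000 or more. In cKO cells of these depths it had 841 CPM (637 to 1090) and 1766 CPM (1396 to 2204), 1119 CPM (999 to 1249) and 3633 CPM (3414 to 3863), and 927 CPM (748 to 1136) and 3206 CPM (3094 to 3322). Fos was thus higher at the larger ribosomal share in each bin of depth. The deepest cells below 2.5% numbered only 37 in the control and 10 in the cKO library, so their values rest on few cells. The summed share of the 10 genes was 1.53 and 1.55% in the shallowest cKO cells, where it was level, compared with 1.12 and 1.70% in the shallowest control cells.

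**Figure D4:**
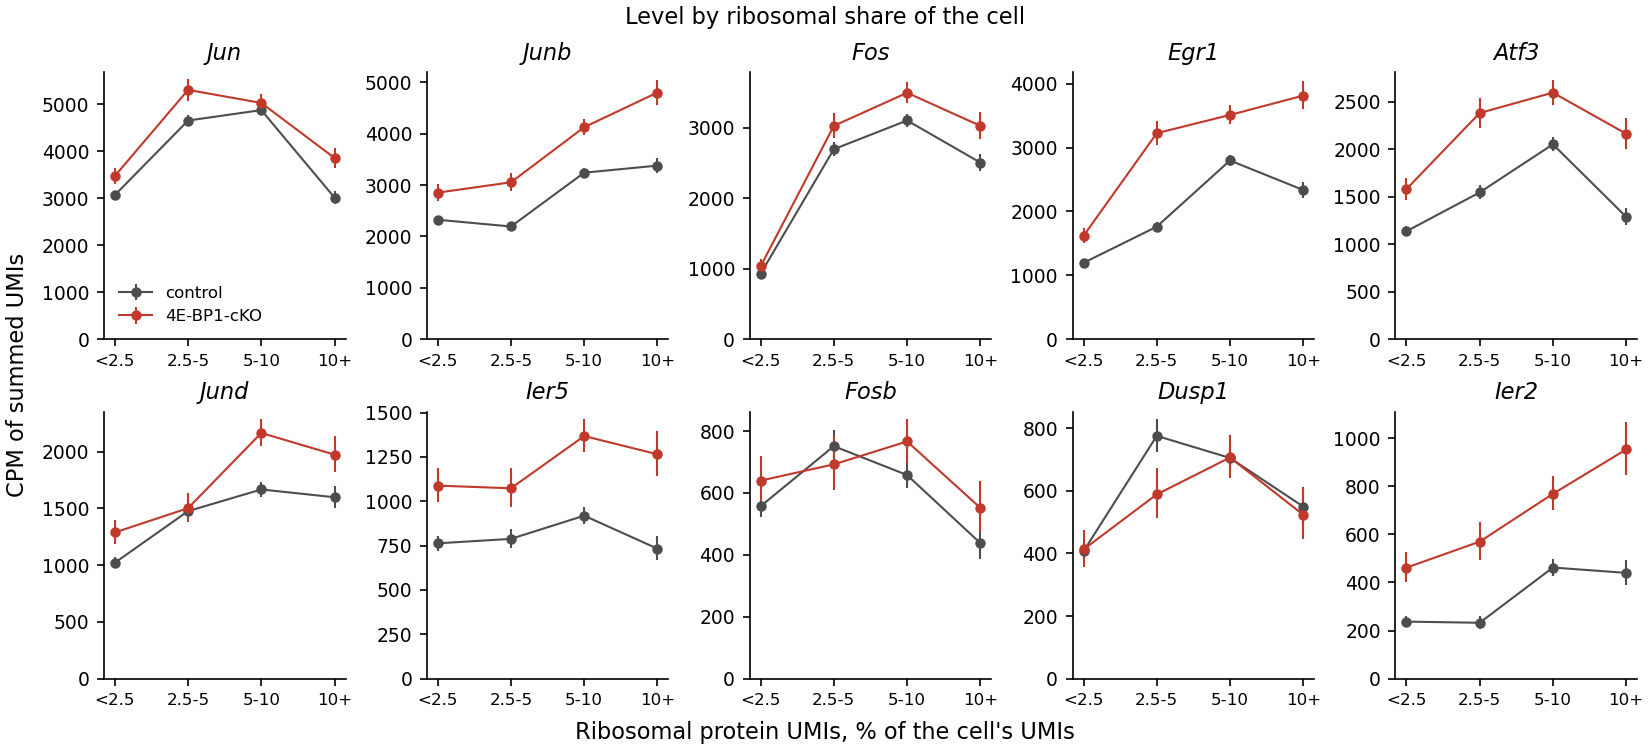
Each panel plots the CPM of 1 gene (y axis, from 0) in cells grouped by ribosomal protein UMIs as a percentage of the cell's UMIs (x axis), with 95% counting intervals, in gray for the control library and red for the cKO library. Fos steps up from 930 to 2699 CPM between the lowest bins of the control library. The red line of Ier2 lies above the gray in every bin, and the lines of Dusp1 cross or touch.

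Several genes did not follow the share to its upper end. Jun in the control library had 3068, 4655, 4877 and 3014 CPM in the 4 bins from under 2.5% to 10% or more, so that the values at both ends were close. Atf3 there had 1136, 1546, 2052 and 1289 CPM. Junb in the cKO library went the other way, with 2853, 3055, 4128 and 4803 CPM, highest in the last bin, and so did Ier2 with 461, 569, 768 and 952 CPM.

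Within cells of like ribosomal share most members were still higher in the cKO library. For Ier2 it was 1.95, 2.45, 1.66 and 2.17 from the lowest bin to the highest, and for Egr1 1.35, 1.83, 1.25 and 1.63. For Fos it was 1.11, 1.12, 1.13 and 1.21. The ratio ran from 1.23 to 1.42 over the bins for Junb, from 1.36 to 1.73 for Ier5 and from 1.27 to 1.68 for Atf3. It ran from 0.922 to 1.26 for Fosb, from 1.03 to 1.28 for Jun and from 1.02 to 1.30 for Jund. As the mean over the 4 bins, 2 members were past 1.5-fold higher, compared with 1.45% of all genes. Dusp1 was lower in the cKO library in the bin of 2.5 to 5%, with 775 and 589 CPM (0.759-fold, 0.651 to 0.882). In the other 3 bins its interval held 1.

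Cells with much of 1 member tended to have much of the others. Pearson correlations over cells were computed on ln(1 + UMIs per 10000) after removing the log total and the ribosomal share by linear regression, in 1058 control and 375 cKO cells. All 45 pairs were positive in both libraries, with a median r of 0.24 (range 0.12 to 0.39) in the control library and 0.28 (0.15 to 0.47) in the cKO library. The pairs share the cells and their depth, so these values are a description. The strongest pair was Fos with Jun in the control library (0.39 and, in the cKO library, 0.43), and Junb with Ier5 in the cKO library (0.47 and, in the control library, 0.35). Egr1 had the highest median r with the other members in both libraries, 0.31 and 0.37. Dusp1 had the weakest pairs in the control library, 0.12 with Ier2 and 0.13 with Atf3, yet its r with Jun was 0.27 and, in the cKO library, 0.38. The median r of the 45 control pairs was 0.37 within cells at or above 2.5% ribosomal share and 0.15 within cells below it. Kept control cells below 2.5% were also shallower, with a median of 2358 UMIs, compared with 5297 in those at 2.5 to 5%. The part of depth in this difference was not tested.

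**Figure D5:**
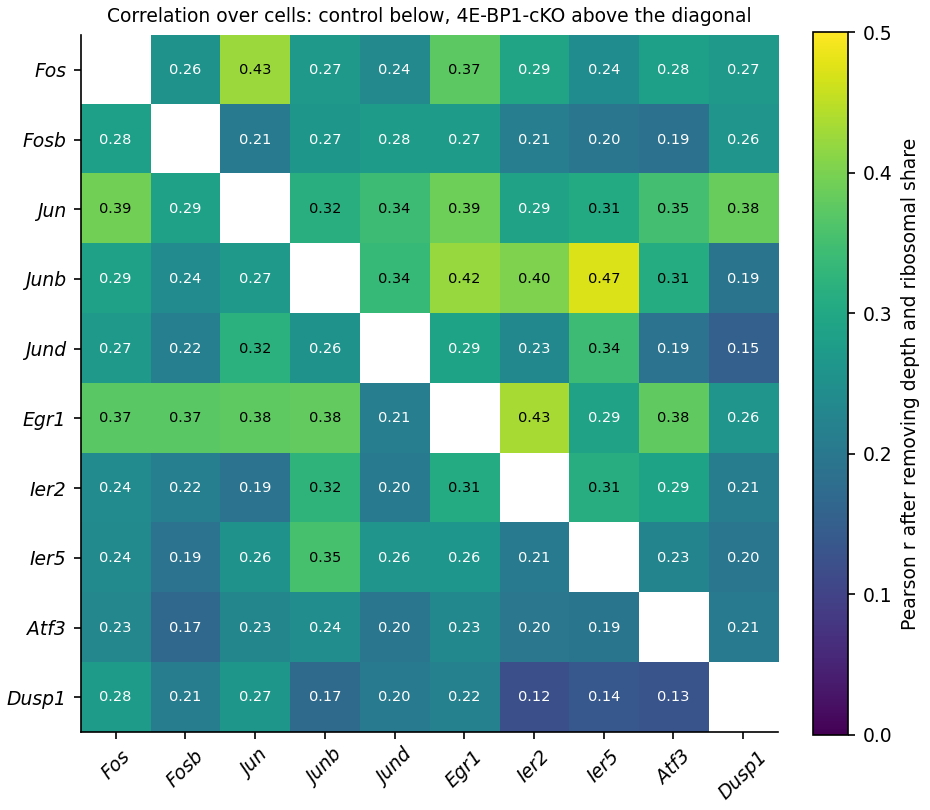
Each square gives Pearson's r over cells between the gene of its row and that of its column, below the diagonal for 1058 control cells and above it for 375 cKO cells, after depth and ribosomal share were removed. Color runs from 0 (dark) to 0.5 (yellow). All squares are above 0, and the highest is Junb with Ier5 at 0.47 in the cKO library.

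Detection at equal depth was also compared between cells with and without Fos. Here the ribosomal share, with which Fos and Egr1 differed, was not removed, and its part in these values was not tested. Of the 617 control cells with a Fos UMI, 65.3% (61.4 to 69.1%) also had an Egr1 UMI, compared with 46.7% (42.0 to 51.5%) of the 441 without. The cKO library gave 79.5% (74.1 to 84.3%) of 259 cells with Fos and 58 of 116 cells without (40.6 to 59.4%). Ier2 was found in 22.4% (19.1 to 25.9%) of control cells with Fos and 13.8% (10.7 to 17.4%) of those without, and in 40.5% (34.5 to 46.8%) and 20.7% (13.7 to 29.2%) of cKO cells. Ier2 was therefore detected in about as large a share of cKO cells without Fos as of control cells with it. Atf3 was detected in 54.5% (50.4 to 58.4%) and 51.0% (46.2 to 55.8%) of control cells with and without Fos, with overlapping intervals, and in 69.1% (63.1 to 74.7%) and 51.7% (42.3 to 61.1%) of cKO cells.

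Genes outside the set that varied with it were ranked by the smaller of their r values with the summed members in the 2 libraries, among 1696 genes with at least 200 UMIs in each. Nfkbia, which encodes the inhibitor IκBα of NF-κB and is itself induced by it, came first with 0.44 in the control and 0.48 in the cKO library. Others among the highest were Socs3, a feedback inhibitor of cytokine receptors (0.37 and 0.41), Ppp1r15a of the integrated stress response (0.35 and 0.39), Zfp36, whose product destabilizes mRNAs (0.40 and 0.35), Btg2, Klf6, H3f3b, Hspa8 and Hspa1a. The median r over all 1696 genes was 0.00 and 0.01. Between the libraries, Nfkbia was 1.65-fold, Socs3 1.57-fold and Ppp1r15a 1.52-fold higher in the cKO library, whereas Hspa1a had 1110 CPM in the control and 717 CPM in the cKO library, a log2 ratio of -0.63. A gene could thus vary with the set among cells and still differ from it between the libraries.

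The wider pathway was described with lists of related genes, each read against the same 1.87 and 5.01% of all genes past 1.5-fold higher and lower. Of 11 other AP-1 and Maf bZIP factors with at least 100 UMIs, 0 were past 1.5-fold on either side, with a median log2 ratio of -0.02. The most abundant of them were Maf, a factor of macrophages, with 732 CPM in the control and 509 CPM in the cKO library (0.694-fold, 0.644 to 0.748), and Atf4 of the integrated stress response, with 145 and 199 CPM (1.37-fold, 1.205 to 1.57).

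Of 14 other immediate early transcription factors, 3 were past 1.5-fold higher and 1 lower in the cKO library, with a median log2 ratio of 0.17. Egr2 and Egr3, paralogs of Egr1, had 98.5 and 104 CPM in the control library and 178 and 181 CPM in the cKO library (1.81-fold, 1.56 to 2.09, and 1.74-fold, 1.503 to 2.003). Csrnp1 was 1.63-fold (1.40 to 1.90) higher. Myc had 49.96 and 32.3 CPM (0.646-fold, 0.474 to 0.868), from 240 and 56 UMIs. With cells thinned to equal depth, the log2 ratio was 0.48 for Egr2 and -0.15 for Myc, both short of 1.5-fold, and 0.62 for Egr3 and 0.76 for Csrnp1, both past it.

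Of 23 other early-response regulators and effectors, 6 were past 1.5-fold higher and 0 lower, with a median log2 ratio of 0.40, the same as that of the members. The chemokine genes Ccl3 (959 and 1589 CPM, 1.66-fold, 1.58 to 1.74) and Ccl4 (3082 and 5065 CPM, 1.64-fold, 1.6004 to 1.69) were among the 4 with the largest ratios, together with Nfkbia and Gadd45b (444 and 716 CPM, 1.61-fold, 1.501 to 1.73), a gene of the growth arrest response. Ccl3 and Ccl4 varied with the summed members less than Nfkbia did, with an r of 0.13 and 0.09 in the control library and 0.24 and 0.23 in the cKO library.

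Among 9 MAPK phosphatases and feedback inhibitors, 1 was past 1.5-fold higher and 1 lower, with a median log2 ratio of -0.04. Dusp2, a nuclear phosphatase of ERK and p38 found in leukocytes, had 100.97 and 210 CPM (2.08-fold, 1.81 to 2.39), unlike its relative Dusp1 at 0.954-fold. Dusp10 had 20.6 and 9.23 CPM, from 99 and 16 UMIs (0.448-fold, 0.246 to 0.763). At equal depth the log2 ratio was 0.82 for Dusp2 and -0.33 for Dusp10, which was then short of 1.5-fold. On the upstream side, of 18 MAPK kinases and 8 SRF, TCF and CREB factors, 0 were past 1.5-fold on either side. The median log2 ratios were 0.06 and -0.02. In lists this short, 0 is near the 1.87 and 5.01% of all genes, so it does not set them apart. At equal depth the log2 ratio was 1.10 for Map2k2, -0.71 for Map2k6 and -0.71 for Elk4, each past 1.5-fold. The most abundant were Mapkapk2 (429 and 624 CPM, 1.45-fold, 1.35 to 1.57) and Map3k5 (229 and 274 CPM) among the kinases, and Elk3 (170 and 169 CPM) and Creb1 (152 and 169 CPM) among the factors. Without replicates, a ratio near 1 in these lists does not show that the genotypes are alike.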

How the data were processed

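scRNA-Seq of sorted spinal microglia was analysed as 1 control and 1 4E-BP1–cKO library. The authors deposited UMI counts for each gene in each barcode that Cell Ranger 8.0.1 (per the file headers) had called as a cell on mm10, without normalization. No annotation release was named in the sources read. The members and lists were chosen with earlier results of these data known.

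Barcodes with more than 300 genes and under 5% mitochondrial UMIs were kept. Doublets were not removed in the main analysis (Scrublet called 4 control and 11 4E-BP1–cKO cells, removed as an alternative). The paper removed doublets with another tool, scDblFinder, and reports fewer cells in both groups after its filters. UMIs were summed per library, and log2 ratios used CPM plus 1, for genes with at least 100 UMIs. Ratios have exact conditional Poisson, counts exact Poisson and shares Clopper-Pearson 95% intervals. Calls were past 1.5-fold, with no p-values. The genes named were the 10 members, the 10 most similar genes, up to 4 higher and 4 lower genes per list (or the 2 with most UMIs where fewer than 2 passed) and 4 genes of other cell types. Values of some genes are not reported here.

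In simulated Poisson counts for 7184 genes, the direction was right for 100% of 200 changed genes, and 96.0% of intervals held the true ratio. The intervals assume the same Poisson model, so this checks the computation and not whether they hold in these data. Alternatives covered thinning to 872 or 2000 UMIs, TMM (edgeR 4.0.16), other totals, pseudocounts, filters, cuts and cell sets. Python 3.11.15, numpy 2.4.6, scipy 1.17.1, pandas 2.3.3, scanpy 1.11.5 and R 4.3.3 were used.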

Additional observations from a re-analysis of the deposited data

How the results depend on the processing

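The ratio of 9 members kept its direction in all 12 alternatives, between 0.11 on the log2 scale for Fosb at the lowest and 1.21 for Ier2 at the highest, whereas Dusp1 ranged from -0.11 to 0.08, above 0 with thinning to 2000 UMIs. Dropping the minimum of UMIs or using a pseudocount of 10 CPM could not change a member's direction. Bins of depth were not among the alternatives, and in cells with under 1500 UMIs the ratio was 0.925 for Fos and 0.998 for Junb. Members past 1.5-fold numbered 2 or 3 in each alternative. Fos moved most, from 0.19 to 0.51. The median log2 ratio over the members was 0.40, and became 0.45 with cells thinned to 2000 UMIs and 0.33 as the mean over the 4 ribosomal share bins. The share of all genes past 1.5-fold higher was 1.87%, and became 3.63% with thinning to 872 UMIs, 3.68% with thinning to 2000 UMIs, 0.668% with a pseudocount of 10 CPM, where low genes are drawn to 1, and 7.99% without a minimum of UMIs. Leaving out cells with 3 markers of another cell type, an alternative chosen after seeing the data, gave a median of 0.38 over the members. In the control library, the median log2 ratio of the members between cells of high and low ribosomal share was 0.62, and became 0.48, with 3 members past 1.5-fold in place of 6, at a cut of 4%. It became 0.70 with ribosomal protein and mitochondrial genes left out of the total. The median r of the 45 control pairs was 0.241, and became 0.163 in thinned cells, 0.374 in cells at or above 2.5% ribosomal share and 0.1504 below it. The median share of cells with a UMI of a member was 79.6% in the control and 80.2% in the 4E-BP1–cKO library, and became 55.3 and 64.7% at 872 UMIs and 74.0 and 85.1% at 2000 UMIs, since thinned cells show fewer genes and shallow cells were left out. The causes of the other shifts were not tested. Of the other values for the set, 68 stayed within the limits used here. No paired analysis was possible because each genotype has 1 library and no test was run, and no replicate could be left out.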
